A study of Homo sapiens with 23 samples.

Results

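The genes described here encode 10 subunits of the nucleosome remodeling and deacetylase (NuRD) complex, a corepressor to which TRPS1, an atypical repressor of the GATA family, has been linked. Members were listed by symbol and no measured value entered the rule, though earlier results of these data were known when they were chosen. They are CHD3, CHD4, HDAC1, HDAC2, MTA1, MTA2, MTA3, GATAD2A, GATAD2B and MBD3. Each was matched through its Ensembl identifier to GENCODE release 44, and all 10 were found among the 60605 identifiers of the count table. Nascent transcription was measured by PRO-seq, which maps engaged RNA polymerases, in T47D, a luminal breast cancer cell line that expresses the estrogen receptor. All 23 libraries came from clone 28, in which endogenous TRPS1 carries a dTAG degron. It is a single clone in which, per the study's methods, some of the TRPS1 copies are knocked out and only the tagged protein is made, so the controls carry the same alleles as the treated cells. Control cells received 0.1% v/v DMSO for 24 h (4 libraries). Treated cells received dTAG-13 and dTAG-V-1 at 50 nM each, called dTAG here, for 0.5, 1, 2 or 4 h (4 libraries each) or for 24 h (3 libraries, replicates 2, 3 and 4). The ligands destroy the tagged protein and leave the gene in place, so TRPS1 transcription does not check the labels.

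NuRD joins nucleosome remodeling and histone deacetylation in the same complex. A CHD helicase slides nucleosomes, HDAC1 and HDAC2 remove acetyl groups from histone tails, MTA proteins hold the deacetylases and histone chaperones, MBD3 or MBD2 connects the deacetylase and remodeling modules, and GATAD2 proteins bridge MBD to CHD. Members within a family are alternative subunits, so that a cell can build several versions of the complex. NuRD is brought to DNA by zinc finger factors, and in luminal breast cells MTA3 is known as an estrogen-dependent subunit. Whether the genes of the corepressor themselves respond when TRPS1 is lost is the question asked by the comparison of each dTAG time point with DMSO.

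TRPS1 binds GATA motifs, so the bases before the members' start sites were read from the RefSeq promoter table (GRCh38.p14, the build of these counts being hg38). The 250 bases before each of 13 RefSeq starts of the 10 genes were searched on both strands for the GATA motif in its 4 spellings, written AGATAA with a last base that may be G, and TGATAA with the same choice. Only the CHD3 window held a match, AGATAA, whose first base lies at -191 from the RefSeq start. That is 1 of 13 windows (7.69%), while 22.3% of all 35116 RefSeq windows of this length held a match. The CHD3 window lies inside the gene's annotated span, chr17:7884796-7912760, so the match is not before the span. Inside their spans also lies 1 window each of CHD4, HDAC2, GATAD2B, MTA2, MTA3 and GATAD2A. The members' windows had a median GC content of 71.6% and a median of 25 CpG dinucleotides, against 58% and 11 over all windows. A match is a description of letters, not a binding site, and windows without these letters say nothing about the factor. The windows shown are CHD3, which holds the match (in capitals), and MTA1 and GATAD2A, the genes whose dTAG libraries separated from DMSO in CPM as described below. They lie at chr17:7888539-7888788, chr14:105419577-105419826, chr19:19385593-19385842 (GATAD2A start a) and chr19:19405425-19405674 (GATAD2A start b), all on the plus strand, and are written 5′ to 3′.
CHD3: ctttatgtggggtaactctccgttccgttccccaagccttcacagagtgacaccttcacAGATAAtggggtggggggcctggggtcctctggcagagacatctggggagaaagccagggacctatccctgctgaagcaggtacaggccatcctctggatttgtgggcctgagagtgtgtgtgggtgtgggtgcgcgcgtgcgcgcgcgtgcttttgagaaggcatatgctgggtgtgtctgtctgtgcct
MTA1: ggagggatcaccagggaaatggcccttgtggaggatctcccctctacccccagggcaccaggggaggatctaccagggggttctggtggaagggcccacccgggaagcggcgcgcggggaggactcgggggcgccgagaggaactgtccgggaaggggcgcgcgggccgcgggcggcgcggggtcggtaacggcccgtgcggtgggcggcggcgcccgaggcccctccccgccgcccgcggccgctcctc
GATAD2A start a: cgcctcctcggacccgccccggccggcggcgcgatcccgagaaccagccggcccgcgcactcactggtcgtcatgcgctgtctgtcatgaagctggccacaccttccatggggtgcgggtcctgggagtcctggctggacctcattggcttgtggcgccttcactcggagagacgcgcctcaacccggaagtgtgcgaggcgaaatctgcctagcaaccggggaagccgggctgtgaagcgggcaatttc
GATAD2A start b: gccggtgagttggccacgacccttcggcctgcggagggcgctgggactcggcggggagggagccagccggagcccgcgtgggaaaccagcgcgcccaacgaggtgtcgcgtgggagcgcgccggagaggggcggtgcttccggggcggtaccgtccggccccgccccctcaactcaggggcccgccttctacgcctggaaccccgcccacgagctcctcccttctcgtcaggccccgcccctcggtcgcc

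Libraries held between 4408544 and 17571616 counts (median 9768427), and replicate 1 was the shallowest number (median 7001408). Mitochondrial genes took 6.5% of the counts in replicate 1 at 4 h and 1.73% to 4.24% in the other libraries. The 8 luminal markers, ESR1 and KRT8 among them, summed to between 6838 and 7641 CPM (counts scaled to library size) in DMSO and between 6124 and 7082 CPM under dTAG. The 6 markers of basal, immune, endothelial and stromal cells summed to between 35.7 and 39.5 CPM in DMSO and between 37.6 and 47.4 CPM under dTAG, of which TP63 gave 18.3 to 32.5 CPM, while KRT5 and KRT14 had at most 6 counts in a library. The part of these shifts in the results below was not tested. TRPS1 itself lay between 7997 and 10160 CPM in DMSO and between 8928 and 11980 CPM under dTAG. Its log2 fold change was 0.13 ± 0.08 (SE) at 0.5 h and 0.28 ± 0.09 at 24 h, which missed the threshold in edgeR (adjusted p = 0.822 and 0.288) and passed it when the replicate number was a block (adjusted p = 0.0558 and 0.000135).

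None of the 10 NuRD genes changed detectably after TRPS1 depletion. In edgeR's quasi-likelihood test, 0 of 10 passed an adjusted p-value (FDR) of 0.1 at 0.5, 1, 2, 4 or 24 h, where 0.476%, 1.25%, 0.733%, 0.833% and 0.863% of the 26057 tested genes passed. The members' count is therefore close to the background in each comparison. The numbers of members with an unadjusted p under 0.05 were 1, 2, 0, 0 and 0 in the same order. Over all 26057 tested genes they were 2002, 2454, 1849, 1946 and 1922. DESeq2 called 0 of 10 at each time. There 1, 3, 0, 0 and 1 members had an unadjusted p under 0.05, beside 1536, 1771, 1405, 1374 and 1573 genes in all. Over the time course from DMSO to 4 h, 0 of 10 passed the F-test against 1.33% of 25255 tested genes. At an unadjusted p under 0.05 were 1 member and 2148 of the tested genes. With the replicate number as a block, 0 of 10 passed against 4.6%. The smallest adjusted p-value over the time course was 0.473, for MTA1.

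The confidence intervals show how precisely the change in each gene's counts was measured. Each refers to 1 gene at 1 time, and they are not a joint bound. A change confined to part of a long gene, such as MTA3 with a span of 262 kb, could be larger than its interval shows. Across the 50 combinations of gene and time point, all 50 of the 95% confidence intervals lay within 1.3-fold in either direction. The lowest bound was 0.775-fold, for CHD4 at 0.5 h, and the highest was 1.24-fold, for CHD3 at 1 h. The intervals excluded no change in 3 of 50 combinations, GATAD2A at 0.5 h, GATAD2A at 1 h and MTA1 at 1 h, each before any adjustment for the number of genes. The median log2 fold change of the 10 members was -0.05 (0.5 h), -0.07 (1 h), -0.03 (2 h), -0.03 (4 h) and 0.00 (24 h), against a median over all tested genes between 0.00 and 0.01. With the replicate number as a block the median at 24 h was 0.03 and no member passed. In that fit 5 of 50 intervals excluded no change, the same 3 and those of MTA3 at 1 h and at 24 h.

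**Figure D1:**
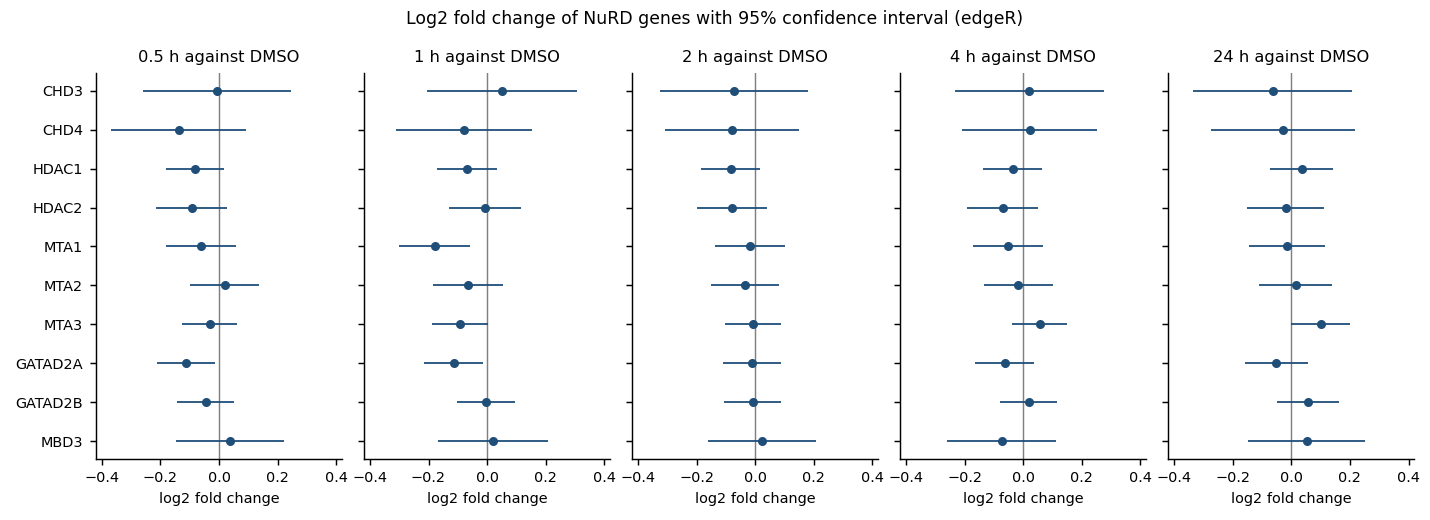
Log2 fold change (x axis) of each NuRD gene (rows) at each dTAG time against DMSO, 1 panel per time. Points are edgeR estimates and bars their 95% confidence intervals. Of the 50 intervals, 3 exclude 0 and none of the genes passes an FDR of 0.1.

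The genes differed widely in polymerase density. Levels between genes were compared per length, as CPM per kb of the annotated span, which does not separate polymerase near the promoter from polymerase in the gene body. Whether the authors counted the whole span or part of it is not given in the sources used here, and another window would change these densities, their percentiles and their order. In DMSO, MTA2 was the most densely transcribed member (4.66 ± 0.26 CPM per kb, SD, n = 4), at percentile 93.7 of 15720 protein-coding genes, and MBD3 followed (3.32 ± 0.41, percentile 89.4). MTA1 (1.86), GATAD2B (1.67), CHD3 (1.58) and CHD4 (1.16) lay above the protein-coding median of 0.867 CPM per kb. HDAC1 (0.859), GATAD2A (0.813), HDAC2 (0.746) and MTA3 (0.746) lay just below it. In this order GATAD2B and CHD3, HDAC1 and GATAD2A, and HDAC2 and MTA3 are neighbours whose DMSO libraries overlap, and the other 6 neighbouring pairs do not overlap. The densest members, MTA2 and MBD3, have the shortest annotated spans (8.65 and 19.3 kb), and MTA3 has the longest (262 kb). The part of span length in this order was not tested.

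**Figure D2:**
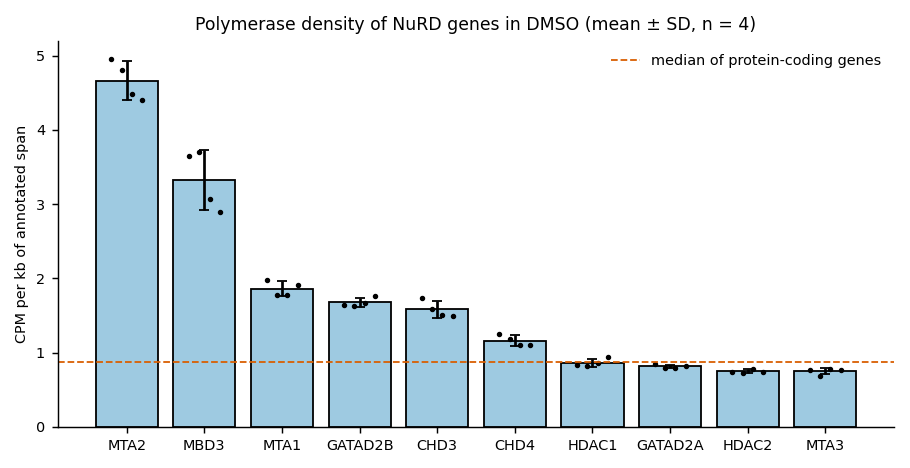
Bars give the mean CPM per kb of annotated gene span (y axis) of each NuRD gene (x axis) in DMSO, error bars the SD and dots the 4 libraries. The dashed line is the median of protein-coding genes, 0.867 CPM per kb, and 6 of the members lie above it.

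CHD3 and CHD4 are the ATPases of the complex, of which CHD4 is the more studied in breast cancer. CHD3 lies at chr17:7884796-7912760 on the plus strand and CHD4 at chr12:6570082-6614524 on the minus strand (hg38). The CHD4 span is shared over 83.9% with an annotated gene on the same strand, ENSG00000285238, so part of its counts may be counted for both. In DMSO, replicates 1 to 4 of CHD3 gave 48.7, 44.3, 42.02 and 41.7 CPM, and those of CHD4 gave 55.7, 52.3, 49.0 and 48.7 CPM. At 0.5 h, CHD3 gave 53.2, 40.7, 42.4 and 39.9 CPM and CHD4 gave 57.2, 39.8, 42.9 and 47.5 CPM. Both genes stood highest in replicate 1 and the DMSO and dTAG ranges overlapped. CHD4 had the largest fitted difference among the members at 0.5 h, -0.14 ± 0.11 on the log2 scale (adjusted p = 0.902). It was -0.20 without replicate 1 and -0.06 without replicate 2, neither of which passed.

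For CHD3 the replicate number outweighed the treatment. Replicate 1 was the highest library in 5 of 5 groups that held it, by 0.18 to 0.60 on the log2 scale (mean 0.33), and for CHD4 it was the highest in 4 of 5 groups (mean 0.25). The largest gap was at 4 h, where replicate 1 gave 61.1 CPM of CHD3 and the other 3 libraries gave between 38.3 and 41.7 CPM. That is the library with the highest mitochondrial share and a low total, and their part in the gap was not tested. Of the sum of squares of log2 CPM over 23 libraries, the replicate number held 67% for CHD3, 52.1% for MBD3, 47% for GATAD2B and 45% for CHD4. The median over 14148 genes with a mean of at least 100 counts was 29.6% for the replicate number and 23.2% for time. Time held the larger share of the pair for MTA3 (53.9% against 15.4%), MTA1 (41.9% against 14.1%), GATAD2A (40.6% against 4.02%) and HDAC1 (37.9% against 20.4%). Time has more levels than the replicate number. Values unrelated to either would therefore tend to give time the larger share, and these shares are not scaled for that.

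**Figure D3:**
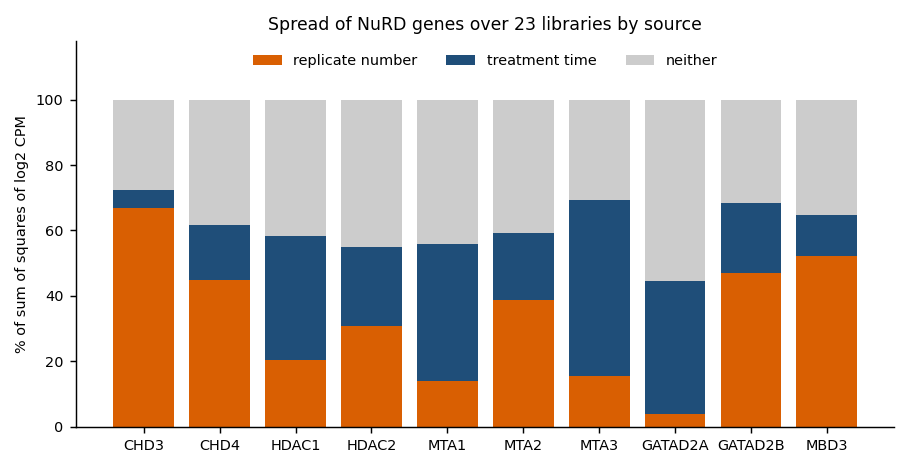
Share of each NuRD gene's sum of squares of log2 CPM over 23 libraries (y axis, percent) held by the replicate number, by treatment time after the replicate number, and by neither. The replicate share runs from 4.02% for GATAD2A to 67% for CHD3.

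HDAC1 (chr1:32292083-32333635, plus strand) and HDAC2 (chr6:113933028-114011308, minus strand) are the catalytic deacetylases. HDAC1 lay between 34.0 and 38.8 CPM in DMSO and between 31.4 and 36.9 CPM in the 19 dTAG libraries. HDAC2 lay between 56.2 and 61.1 CPM in DMSO and between 49.9 and 63.2 CPM under dTAG. The ranges overlapped at every time. Compared with the DMSO library of its own replicate number, HDAC2 was lower in 15 of 19 pairs and HDAC1 in 12 of 19. Over the 10 members this count ran from 7 (MBD3) to 16 (GATAD2A). The 19 pairs share the 4 DMSO libraries and are not independent, and the counts were not tested. Fitted differences from DMSO lay between -0.08 and 0.04 (HDAC1) and between -0.09 and -0.01 (HDAC2). Per kb of annotated span, HDAC2 was below HDAC1 in all but 1 library, with ratios from 0.774 to 1.003. The promoter window of HDAC2, chr6:113971149-113971398, lies inside its annotated span of 78.3 kb. A span from that RefSeq start would be shorter, and the order of HDAC1 and HDAC2 per kb could then differ.

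The MTA proteins are the scaffold of the complex. MTA1 (chr14:105419820-105470729, plus strand), known for its link to metastasis, showed the smallest adjusted p-value of any member against DMSO. It gave 100.6, 90.7, 90.0 and 97.4 CPM in DMSO and 79.9, 85.0, 83.6 and 85.7 CPM at 1 h. All 4 libraries at 1 h lay below all 4 DMSO libraries. The ranges overlapped with DMSO at the other times, with 84.5, 89.0, 92.5 and 96.8 CPM after 0.5 h, 96.4, 95.3, 93.9 and 88.4 CPM after 2 h, 85.3, 89.0, 94.7 and 95.6 CPM after 4 h and 86.6, 90.2 and 104.1 CPM after 24 h. The difference at 1 h was -0.18 ± 0.06 on the log2 scale, a fold of 0.883 with a 95% interval from 0.812 to 0.960 (edgeR, adjusted p = 0.225). The adjusted p lay between 0.107 and 0.566 over all settings tried, and none passed. MTA1 shares 59.5% of its span with TEX22 on the same strand, so part of its counts may be counted for both.

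MTA3 (chr2:42494569-42756947, plus strand) was the member with the largest share of its spread held by time. It gave 199.6, 180.3, 203.6 and 199.5 CPM in DMSO, and under dTAG 186.9, 180.2, 180.9 and 186.3 CPM at 1 h and 197.4, 211.8 and 220.3 CPM in replicates 2, 3 and 4 at 24 h. Paired by replicate number it was lower in 3 of 4 pairs at 0.5 h, 4 of 4 at 1 h and 2 of 4 at 2 h. It was higher in 4 of 4 at 4 h and 3 of 3 at 24 h, while the group ranges overlapped with DMSO at each time. MTA1, MTA2 and GATAD2A were also lower in 4 of 4 pairs at 1 h. MTA2, GATAD2B and MBD3 were also higher in 3 of 3 at 24 h. The fitted differences of MTA3 from DMSO at 1, 4 and 24 h were -0.09 ± 0.05, 0.06 ± 0.05 and 0.10 ± 0.05, none of which passed (edgeR, adjusted p = 0.547, 0.951 and 0.686). MTA2 (chr11:62593214-62601865, minus strand) lay between 38.1 and 42.8 CPM in DMSO and between 36.1 and 44.6 CPM under dTAG, with fitted differences between -0.06 and 0.02. Per kb, MTA2 was above MTA1 and MTA1 above MTA3 in all 23 libraries, with MTA1 to MTA2 ratios from 0.325 to 0.441 and MTA1 to MTA3 ratios from 2.08 to 2.73. Without division by span the DMSO means ran the other way, 195.7 CPM for MTA3, 94.7 for MTA1 and 40.3 for MTA2.

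GATAD2A (chr19:19385826-19508932, plus strand) and GATAD2B (chr1:153789030-153923360, minus strand) link MBD to the CHD helicase. GATAD2A gave 103.8, 97.4, 98.1 and 101.2 CPM in DMSO, 86.2, 97.2, 95.1 and 91.3 CPM after 0.5 h, and 93.9, 86.6, 92.5 and 97.31 CPM after 1 h. It lay below all DMSO libraries at both times, by a margin as small as 97.31 against 97.40 CPM at 1 h. At 2, 4 and 24 h its ranges overlapped with DMSO, and it was lower in 16 of 19 pairs of equal replicate number. These pairs share the 4 DMSO libraries and are not independent. The fitted differences of GATAD2A were -0.11 ± 0.05 at 0.5 h and at 1 h (edgeR, adjusted p = 0.542 and 0.438). Without replicate 1 the value at 0.5 h was -0.07. GATAD2B, the higher of the linkers per kb in all 23 libraries (ratio 1.95 to 2.28), lay between 218.5 and 236.6 CPM in DMSO and between 203.8 and 249.4 CPM under dTAG.

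Counted over the members, groups did not overlap with DMSO for 1 of 10 genes at 0.5 h (GATAD2A) and for 2 of 10 at 1 h (MTA1 and GATAD2A), and for 0 of 10 at 2, 4 and 24 h. Over all tested genes the same was true of 4.97%, 5.37%, 4.85%, 4.43% and 9.49%, in the order of the times. With 10 members, these counts differ from the background by at most 2 genes. All comparisons share the 4 DMSO libraries.

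MBD3 (chr19:1573596-1592865, minus strand), the methyl-CpG-binding family member that holds the complex together without itself recognising most methylated DNA, varied by replicate. It gave 70.2, 71.2, 59.2 and 55.6 CPM in DMSO and between 54.5 and 77.7 CPM under dTAG. Its fitted differences lay between -0.07 and 0.05, and its smallest adjusted p against DMSO was 0.977 in edgeR without the block. The smallest was 0.818 with the block and 0.4 over all settings tried. MBD3 shares 75.4% of its span with ENSG00000267059 on the same strand. Summed over the 10 members, CPM ran from 886.4 to 934.6 in DMSO, 868.7 to 888.3 after 0.5 h, 844.3 to 900.0 after 1 h, 889.9 to 899.5 after 2 h, 882.0 to 950.3 after 4 h and 908.4 to 962.0 after 24 h of dTAG, and every dTAG range overlapped with that of DMSO. Paired by replicate number, the sum was lower than in DMSO in 4 of 4 pairs at 0.5 h and at 1 h and in 3 of 4 at 2 h and at 4 h, and higher in 3 of 3 at 24 h. These pairs share the DMSO libraries, and the sum was not tested.

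**Figure D4:**
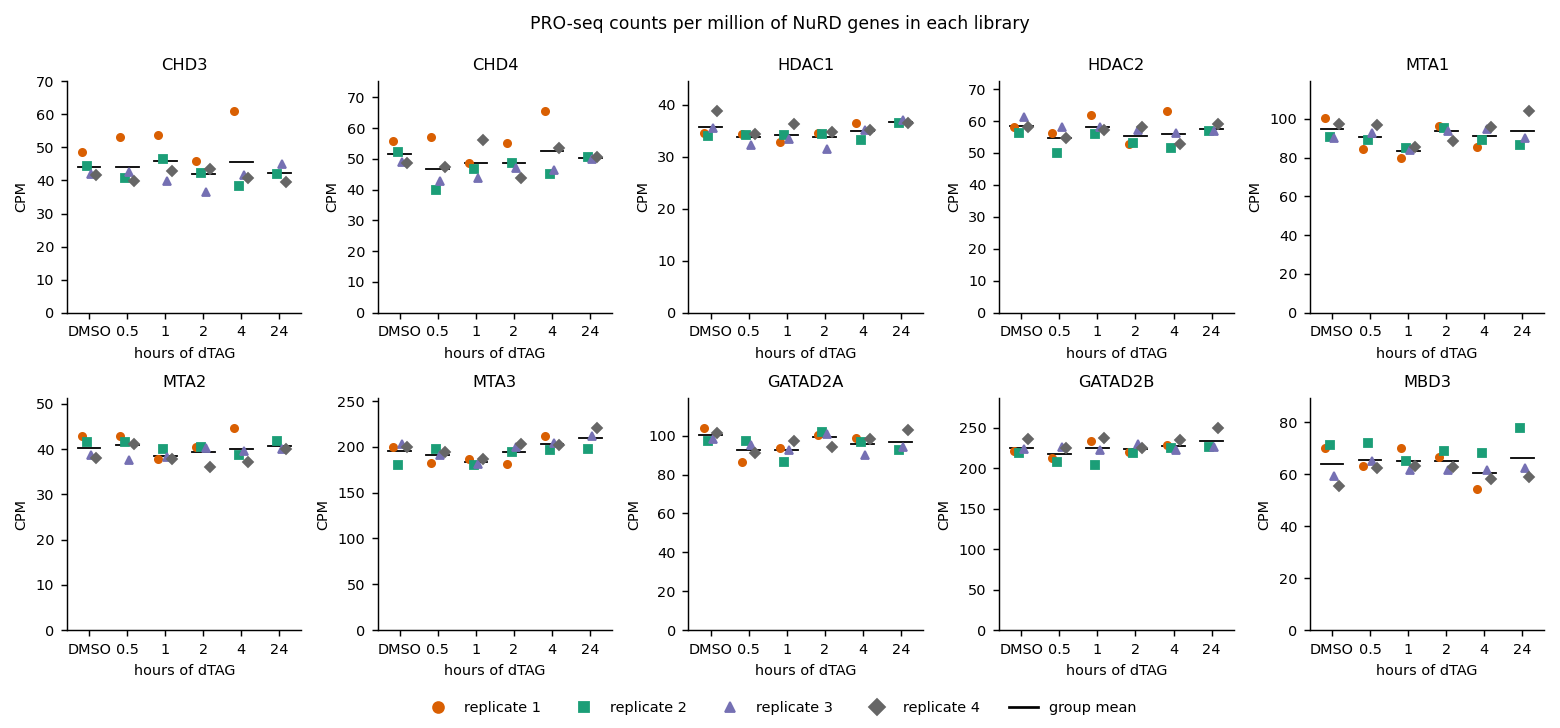
CPM of each NuRD gene (y axis, from 0) in each library by hours of dTAG (x axis, DMSO first). Symbols mark the replicate number and black bars the group mean. CHD3 replicate 1 is the highest of its group wherever it is present, and MTA1 at 1 h is the only time at which that gene lies wholly below DMSO.

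The early and the late state were also compared directly. Between 24 h and 0.5 h of dTAG, 0 of 10 members passed in edgeR, where 1.99% of tested genes did, and DESeq2 called 0 of 10. At an unadjusted p under 0.05 were 2 members and 2786 of 26057 tested genes in edgeR, and 1 member and 2550 genes in DESeq2. The 2 members in edgeR were MTA3 at 0.13 ± 0.05 and HDAC1 at 0.12 ± 0.05 (adjusted p = 0.249 and 0.390). Of the 10 members, 8 had a fitted difference above 0, with a median of 0.07 against -0.01 over all tested genes. With the replicate number as a block in edgeR, 10 of 10 lay above 0, with a median of 0.07 against -0.004 over all tested genes. In that fit 4 members and 4100 of 26057 tested genes had an unadjusted p under 0.05. The smallest adjusted p of a member was 0.102. All members were read in the same libraries, so their directions are not independent. The 24 h group holds no replicate 1. In a fit chosen after seeing the data, with the replicate number as a block and without replicate 1, CHD4 (0.21, adjusted p = 0.0880) and MTA3 (0.11, adjusted p = 0.0986) passed, 2 of 10 members where 7.16% of 26336 tested genes passed, while the block with all libraries called 0 of 10, where 6.34% of tested genes passed.

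Among 57 genes of related corepressor complexes, 55 were tested. The list holds 5 other NuRD genes, 12 CoREST genes, 14 SIN3 genes, 6 NCoR genes and 20 zinc finger factors known to recruit NuRD, of which 18 were tested. In edgeR without a block, 1, 2, 1, 1 and 2 of 55 passed against DMSO at 0.5, 1, 2, 4 and 24 h, or 1.82%, 3.64%, 1.82%, 1.82% and 3.64%, beside backgrounds of 0.476%, 1.25%, 0.733%, 0.833% and 0.863%. With the replicate number as a block 5, 6, 4, 2 and 3 passed, beside backgrounds of 2.48%, 3.25%, 2.43%, 2.49% and 2.65%. Between 24 h and 0.5 h, 4 of 55 passed without the block (7.27%, background 1.99%) and 12 of 55 with it (21.8%, background 6.34%). Over the time course to 4 h, 2 of 55 passed without the block (3.64%, background 1.33%) and 10 of 55 with it (18.2%, background 4.6%). These shares were not tested against the background, and the background was not matched for counts. It holds all tested genes, of which 14148 had a mean of at least 100 counts. The lists were also chosen with earlier results of these data known. None of the 5 other NuRD genes, RBBP4 and RBBP7 (histone chaperones), MBD2, CDK2AP1 and CHD5, passed in either fit. An unadjusted p under 0.05 held for 1, 0, 1, 1 and 1 of 5 without the block. Over all 26057 tested genes it held for 2002, 2454, 1849, 1946 and 1922.

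GSE1, a subunit of CoREST complexes, fell. It gave 1190, 1046, 1052 and 1036 CPM in DMSO. After 1 h of dTAG it gave 978.1, 921.6, 910.6 and 984.1 CPM, after 4 h 976.6, 921.4, 923 and 924.8 CPM, and after 24 h 918.8, 906.6 and 933.3 CPM. At these times every dTAG library lay below every DMSO library. The log2 differences at these 3 times were -0.19 ± 0.05, -0.21 ± 0.05 and -0.23 ± 0.05 (edgeR, adjusted p = 0.0588, 0.0359 and 0.0266), and -0.17 at 2 h did not pass (adjusted p = 0.154; 0.0104 with the block).

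CTBP2, a corepressor that binds CoREST, rose late. It gave 358.8, 358.7, 362.1 and 351.5 CPM in DMSO and 400.0, 390.9 and 404.6 CPM at 24 h, without overlap. The difference was 0.16 ± 0.03 on the log2 scale (edgeR, adjusted p = 0.0118), and at 1 h it was -0.09 ± 0.03 (adjusted p = 0.158; 0.0576 with the block).

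PHF12, a partner of SIN3, fell at 0.5 h by 0.19 ± 0.05 (edgeR, adjusted p = 0.0991), from 116.2, 118.5, 110.4 and 121.7 CPM to 97.8, 105.8, 104.2 and 100.7 CPM, without overlap. At 24 h its difference from DMSO was -0.01. ZMYND8, a chromatin reader that recruits NuRD, rose by 0.13 ± 0.04 at 1 h and 0.14 ± 0.04 at 2 h (edgeR, adjusted p = 0.0888 and 0.0799). It went from 265.8, 265.8, 263.4 and 251.6 CPM in DMSO to 292.1, 278.6, 283.5 and 295.1 CPM after 1 h and 300.2, 297.0, 284.6 and 275.0 CPM after 2 h, without overlap. Over the time course to 4 h, GSE1 (adjusted p = 0.0936) and ZNF532, a zinc finger gene of the ZMYND8 module (adjusted p = 0.0406), passed the F-test. Several of these calls rest on the settings. Whichever replicate was left out, the calls at 0.5, 1 and 2 h fell to 0 of 55. At 4 h the count stayed at 1 without replicate 1 and was 0 without any other replicate, and at 24 h it was 1 without replicate 1 and 0 without any other.

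**Figure D5:**
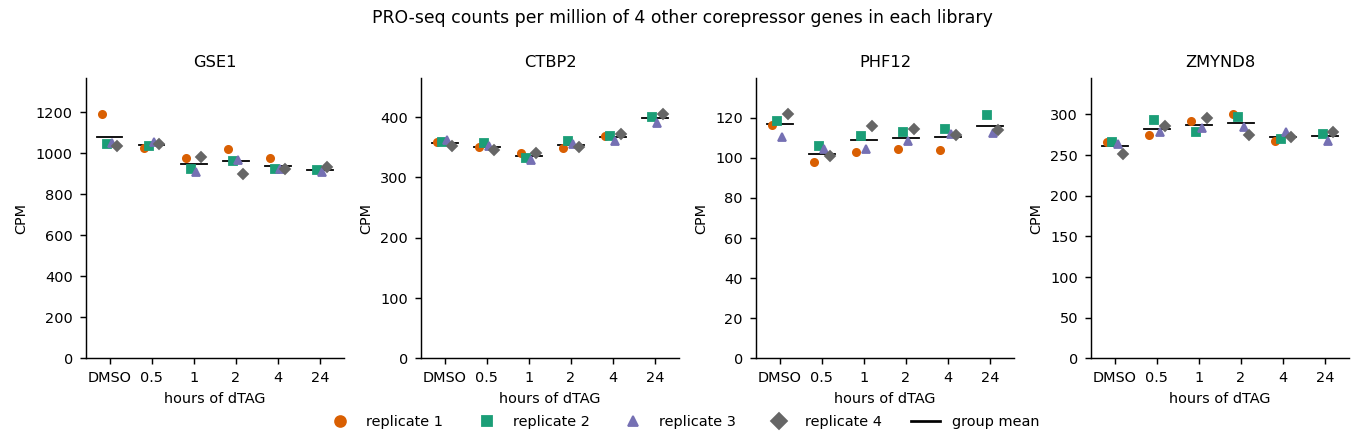
CPM (y axis, from 0) of GSE1, CTBP2, PHF12 and ZMYND8 in each library by hours of dTAG (x axis, DMSO first). Symbols mark the replicate number and black bars the group mean. GSE1 lies below DMSO at 1, 2, 4 and 24 h and CTBP2 above it at 24 h.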

How the data were processed

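The values deposited by the authors were raw counts of PRO-seq reads per gene, not normalized, for 60605 Ensembl identifiers and 23 libraries. The submitters' processing notes name cutadapt 1.8.1, Bowtie2 2.4.4, SAMtools 1.9 and hg38. Per the study's methods, duplicates were collapsed by a molecular identifier, so counts approach molecules. The annotation and the window used for counting are not given in the sources used here. Genes were named by GENCODE release 44, which matched 60463 identifiers. Strand use was read from pairs of a nested gene and its host, both with a mean of at least 100 counts. In 93 of 583 pairs on opposite strands (16%) the nested gene held more counts than its host, against 6 of 858 pairs (0.699%) on the same strand. Over identical spans an unstranded count could not exceed its host, so the counts were treated as stranded and genes overlapping on the same strand as sharing reads. The 6 same-strand exceptions show that this reasoning is not strict, and the spans counted may differ from those of GENCODE.

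Groups and replicate numbers came from the labels. Per the study's methods, the replicates were treated and collected at different times of the same day. The p-values therefore measure the spread between harvests of 1 clone. Deviations from the group mean correlated between libraries of the same number (mean r = 0.287, 55 pairs) more than between different numbers (-0.0825, 165 pairs). By number the mean r was 0.578, 0.0896, 0.434 and 0.141, and 10 of 10, 5 of 15, 15 of 15 and 7 of 15 pairs exceeded 0.1. The pairing rests on the replicate number in the labels, and that equal numbers share a harvest is inferred from the methods. Numbers 1 and 3 carry most of the correlation. Between replicates, chi-square per degree of freedom was at least 1.63, above sampling noise, and every library counts as its own sample.

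Counts were fitted in R 4.3.3 with edgeR 4.0.16 (filterByExpr with minimum count 10 and minimum total 15, TMM, glmQLFit and glmQLFTest, two-sided), which kept 26057 genes and 99.5% to 99.6% of each library's counts. Adjustment was Benjamini-Hochberg across every kept gene, with a threshold of 0.1. The fit held all 23 libraries without a replicate term, since the methods name none. The time course held 20 libraries and 25255 genes. CPM are counts scaled to library size times the TMM factor, with no pseudocount. The SE was taken as the log2 fold change over the root of its F statistic, and intervals are 95%. Scripts were tested on simulated counts drawn without a replicate effect, so that check cannot decide between a block and no block. Alternatives were a replicate block, median-of-ratios and total-count scaling, no filter, DESeq2 1.42.0, fits of 2 groups, and each replicate left out. Named genes are the 10 members, TRPS1 and genes of the other lists called against DMSO. The members and lists were chosen with earlier results of these data known. Promoter windows are RefSeq's (GRCh38.p14), and figures were drawn with matplotlib.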

Additional observations from a re-analysis of the deposited data

Results flagged for a closer look

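Among the 50 combinations of NuRD gene and group of 4 libraries, 4 held a library whose gap to its nearest neighbour was a larger part of the group's range than Dixon's 95% limit, a limit that chance passes in about 1 of 20 groups. CHD3 in replicate 1 at 4 h gave 61.09 CPM, above 38.34 to 41.73 CPM in the other libraries. HDAC1 in replicate 3 gave 32.23 CPM at 0.5 h, below 34.23 to 34.39 CPM, and 31.38 CPM at 2 h, below 34.42 to 34.64 CPM. MTA2 in replicate 4 at 2 h gave 36.14 CPM, below 40.16 to 40.52 CPM.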

How the results depend on the processing

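The count of NuRD genes passing an FDR of 0.1 was 0 of 10 against DMSO and over the time course under every alternative, the replicate block included. For 24 h against 0.5 h it was 2 with the replicate block and without replicate 1, a setting chosen after seeing the data (CHD4 at 0.21 and MTA3 at 0.11, beside 7.16% of all tested genes in that fit), and 0 under the others. A member's log2 fold change under an alternative lay at most 0.106 from the value given above, and the widest range over all settings was that of CHD3 at 4 h, from -0.0853 to 0.0968. Where a sign turned, the value had been of size at most 0.0731. For the 55 other corepressor genes, the counts at 0.5, 1, 2, 4 and 24 h (1, 2, 1, 1 and 2) became 5, 6, 4, 2 and 3 with the replicate block, and 5, 6, 4, 4 and 4 with the replicate block and without replicate 1. Leaving out 1 replicate gave 0 at 0.5, 1 and 2 h, 0 to 1 at 4 h and 0 to 1 at 24 h. DESeq2 gave 3, 4 and 2 at 0.5, 1 and 2 h, total counts gave 0 at 0.5, 1, 2 and 24 h, no low-count filter gave 0, 1, 0 and 1 at 0.5, 1, 2 and 24 h, and fits of 2 groups, which hold fewer libraries, gave 0 at every time. The cause of the other shifts was not tested. Calls over all genes also depended on the setting: at 0.5 h 124 genes passed without a block, 645 with the replicate block, 261 in DESeq2, 30 with total counts, 47 without a filter and 2 in the fit of 2 groups. The counts were 325 and 846 at 1 h, 191 and 634 at 2 h, 217 and 650 at 4 h, 225 and 691 at 24 h, 335 and 1162 over the time course, and 519 and 1653 for 24 h against 0.5 h, without and with the block. Depth limits the members least at GATAD2B (mean 2347 counts) and most at HDAC1 (361.3 counts), and replicate 1 at 4 h held only 137 counts of HDAC1. The counts alone cannot separate paused from elongating polymerase.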
